A study of Mus musculus with 12 samples.

Results

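The genes described here are 10 genes that beta-catenin signalling is known to control in intestinal crypts: the growth genes Myc, Ccnd1 and Cdca7, the identity genes Sox9, Sp5, Prox1 and Tnfrsf19, and the positioning genes Ephb2, Ephb3 and Efnb1. They were chosen by name, and 9 of the 10 were measured, among 19938 genes in all. Ephb2 matched no probe set with a single gene symbol in the annotation used here and is not analysed. Each of the 9 had 1 probe set, so no choice between probe sets was needed. Values are log2 expression, so a difference of 1 is a 2-fold change.

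Epithelium was cut out by laser, from intestinal tumors and from the mucosa beside them, in male C57BL6/J mice, and its RNA was measured on arrays. All mice carried APCmin/+, an inactivated copy of Apc that leads to intestinal adenomas, and were studied at 25 weeks unless weight loss ended their time earlier. KO stands here for FSPCre-PPARB -/- mice, in which Cre under the promoter of fibroblast-specific protein removes Ppard, the gene of the nuclear receptor PPAR-beta/delta, and floxed stands for PPARB flox/flox littermates. The promoter acts in fibroblasts, while the dissected tissue was epithelium. There were 3 KO and 3 floxed arrays of tumor epithelium, 2 KO and 2 floxed arrays of adjacent epithelium, and 2 adjacent arrays whose title gave one genotype and whose genotype characteristic gave the other. Those 2 are called conflict arrays. The title names KO for conflict array 1 and floxed for conflict array 2, and the characteristic says the opposite. No label says which animal an array came from, and p-values measure the spread between arrays, part of which may be technical.

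In the crypt, Wnt ligands protect beta-catenin from the destruction complex that APC scaffolds, and beta-catenin then enters the nucleus and activates genes with TCF factors. Loss of APC leaves this program on, and in adenomas it keeps cells proliferating. MYC is a transcription factor that drives growth, cyclin D1 (Ccnd1) moves cells into the division cycle with its kinases CDK4 and CDK6, and Cdca7 is a MYC-responsive gene expressed in dividing cells. SOX9 is a transcription factor of crypt progenitor and Paneth cells, SP5 a transcription factor induced directly by Wnt signalling, PROX1 a homeobox factor that marks adenomas downstream of TCF, and Tnfrsf19 (TROY) a receptor of stem cells that limits Wnt signalling. EPHB2 and EPHB3 are receptors high in crypts, and their ligand ephrin-B1, from Efnb1, is high toward the villus. In intestinal cells beta-catenin and TCF raise the receptors and lower this ligand, and the opposed gradients sort cells along the crypt axis.

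Promoter sequences are shown for the members whose start sites bear on the later comparisons: Sp5 and Tnfrsf19, the members with letters that TCF factors are known to bind, and Ephb3 and Prox1, which had none. RefSeq held 9 start sites of 7 of the 10 members (GRCm38.p6); Myc, Ccnd1 and Sox9 were not matched. The search covered the 250 bases before each start, on both strands, for CTTTG followed by AA, AT, TA or TT, and for the MYC E-box CACGTG. These do not overlap each other in the sequences below. Capitals mark the matches. Of all 32851 promoters of this length, 14.8% held a TCF match and 6.0% an E-box, against 2 and 1 of the 9 start sites of members.
Sp5 (chr2:70474673-70474922, plus strand): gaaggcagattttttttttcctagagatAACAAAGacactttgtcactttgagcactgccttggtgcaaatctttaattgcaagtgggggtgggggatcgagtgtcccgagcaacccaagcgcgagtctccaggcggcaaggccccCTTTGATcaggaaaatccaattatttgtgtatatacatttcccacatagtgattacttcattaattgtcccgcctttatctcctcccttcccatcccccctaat
Tnfrsf19 (chr14:61037988-61038237, minus strand): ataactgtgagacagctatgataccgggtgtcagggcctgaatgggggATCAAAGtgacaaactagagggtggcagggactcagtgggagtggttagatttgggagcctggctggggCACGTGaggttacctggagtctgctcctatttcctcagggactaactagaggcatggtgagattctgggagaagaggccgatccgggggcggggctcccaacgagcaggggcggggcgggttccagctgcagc
Ephb3 (chr16:21204545-21204794, plus strand): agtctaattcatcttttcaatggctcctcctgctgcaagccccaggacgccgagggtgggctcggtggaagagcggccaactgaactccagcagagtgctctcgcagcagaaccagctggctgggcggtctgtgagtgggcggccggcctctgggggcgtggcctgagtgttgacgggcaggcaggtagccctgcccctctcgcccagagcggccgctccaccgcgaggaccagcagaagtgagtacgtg
Prox1 (chr1:190170828-190171077, minus strand): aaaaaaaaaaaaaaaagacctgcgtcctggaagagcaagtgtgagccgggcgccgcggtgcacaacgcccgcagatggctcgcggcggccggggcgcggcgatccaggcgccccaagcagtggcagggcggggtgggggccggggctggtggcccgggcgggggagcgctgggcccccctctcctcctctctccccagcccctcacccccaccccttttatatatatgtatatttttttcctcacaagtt
The Sp5 sequence held 2 TCF matches, CTTTGTT on the reverse strand at bases 222 to 216 before the start and CTTTGAT at bases 104 to 98. The Tnfrsf19 sequence held CTTTGAT on the reverse strand at bases 202 to 196 and the E-box at bases 133 to 128. It belongs to the second of 2 start sites of that gene, and the other held neither. Matches on the reverse strand appear in the printed strand as their complement read backwards. A match describes letters only and shows no binding.

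The arrays were not alike in signal. Both floxed adjacent arrays, with floxed tumor arrays 1 and 2, showed low correlations with all others (r = 0.496 to 0.640). They are named weak-signal arrays here, while the other 8 correlated with each other at 0.812 to 0.973. Every floxed adjacent array and 2 of the 3 floxed tumor arrays were therefore weak, and no KO array was. The SD of the values was 1.04 to 1.09 in the weak arrays and 1.49 to 1.57 in the others, and the median of unnamed probe sets, used here as a mark of background, was 4.24 to 4.39 and 3.85 to 3.94. Of 10 epithelial markers such as Epcam and Vil1, all 10 lay above that mark in each of the 8 arrays and 8 to 10 in the weak arrays. In the KO arrays the labels tumor and adjacent went with levels opposite to those known for adenomas: 14 measured cell division genes averaged 4.45 to 4.83 in the arrays labelled tumor and 5.26 to 5.29 in those labelled adjacent, and 12 enterocyte genes averaged 7.98 to 8.64 and 6.05 to 7.16. In the floxed arrays tumor minus adjacent had the same directions, with 10 of 14 cell division genes below 0 and 12 of 12 enterocyte genes above 0. None of these genes passed there, and most of the floxed arrays were weak. Tissue names below are therefore those of the labels. Between KO arrays labelled tumor and adjacent, Ppard differed by 0.58 ± 0.37 (log2, SE) and Apc by 0.18 ± 0.34, and neither passed (limma adjusted p = 1.00 for both).

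**Figure D1:**
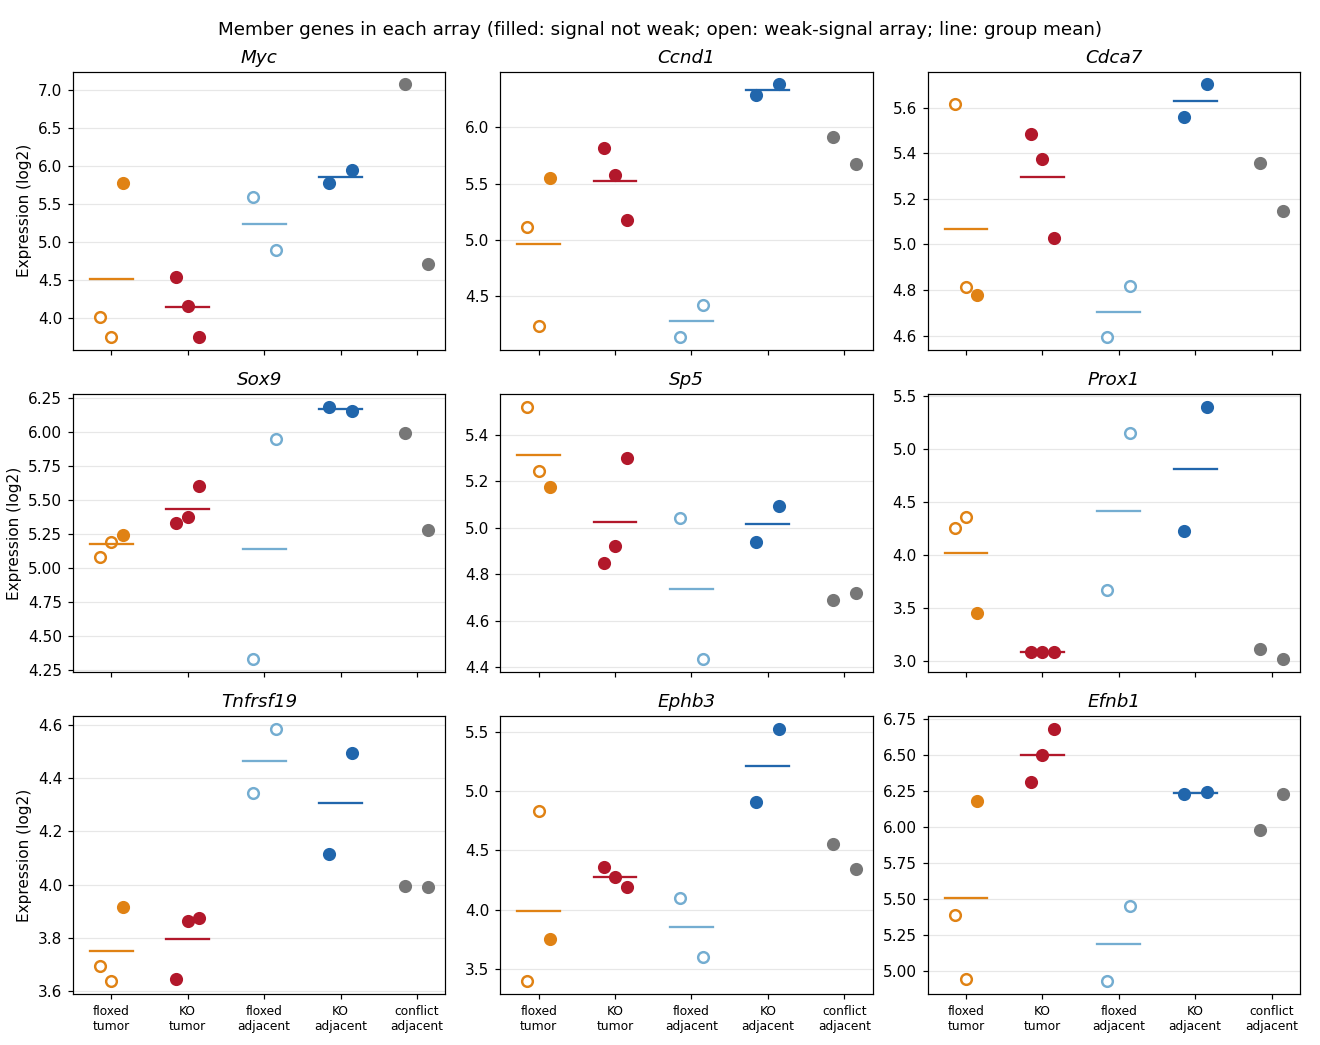
Expression (log2, vertical axes, each with its own range) of the 9 measured genes in each of 12 arrays by group; filled points are arrays whose signal was not weak, open points are weak-signal arrays, and lines are group means, drawn for the 4 groups with agreeing labels. The KO adjacent arrays are the highest 2 for Ccnd1 at 6.29 and 6.38, and the 3 KO tumor arrays lie together at 3.08 for Prox1.

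The comparison of tissues within KO used arrays of like signal. Myc, Prox1 and Sox9 were lower in the 3 KO arrays labelled tumor than in the 2 labelled adjacent, by 1.72, 1.73 and 0.74, when the 5 KO arrays were fitted alone. Ephb3, Ccnd1, Tnfrsf19 and Cdca7 lay below 0 as well and did not pass, Sp5 stood at 0.01, and the ligand gene Efnb1 lay on the other side at 0.26. In all, 3 of 9 members passed in that fit, all lower in tumor, against 1.85% of all genes called in either direction and 1.29% lower. In the fit of 10 arrays in 4 groups, whose spread includes the weak arrays, 0 of 9 passed (limma, 3 at an unadjusted p under 0.05, against 0.0201% of all genes called). The median difference was −0.74 over the 9 members and 0.04 over all genes. In a bulk sample, fewer cells of a type and less RNA per cell cannot be told apart.

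Among the growth genes, Myc was 4.54, 4.15 and 3.75 in KO tumor arrays 1 to 3 and 5.78 and 5.95 in KO adjacent arrays 1 and 2. The groups did not overlap, and KO tumor array 3 lay under the background mark by 0.18. The difference was −1.72 ± 0.22 (SE, 95% interval −2.22 to −1.21; limma adjusted p = 0.0148) on the KO arrays alone, and −1.72 ± 0.53 with an adjusted p of 1.00 on 10 arrays. Ccnd1 was 5.82, 5.58 and 5.18 in the KO tumor arrays and 6.29 and 6.38 in the KO adjacent arrays. Its groups did not overlap either, yet at −0.81 ± 0.19 it did not pass on the KO arrays (adjusted p = 0.0875). Cdca7 was 5.48, 5.37 and 5.03 against 5.56 and 5.70. The gap between its nearest arrays was small, and −0.33 ± 0.17 did not pass (adjusted p = 0.438).

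Among the identity genes, Sox9 was 5.33, 5.37 and 5.60 in the KO tumor arrays and 6.18 and 6.15 in the KO adjacent arrays. The adjacent pair was tight and above all 3 tumor arrays, with a difference of −0.74 ± 0.14 (SE; adjusted p = 0.0453 on the KO arrays). Prox1 was 3.08 in each KO tumor array, 0.83 to 0.85 under the background mark, and 4.22 and 5.40 in the KO adjacent arrays. Its difference of −1.73 ± 0.29 passed on the KO arrays (limma adjusted p = 0.0319), and its size is uncertain because one side lay under the mark. The conflict arrays, also labelled adjacent, were at 3.11 and 3.01, 0.76 and 0.90 under the mark. Either reading of the labels makes one of them KO, so Prox1 above the mark was not shared by all KO adjacent arrays. Prox1 is also known from enteroendocrine cells and lymphatic endothelium. In the KO arrays 12 enteroendocrine genes averaged 4.25 to 4.39 in tumor and 4.10 to 4.13 in adjacent, and 7 endothelial and lymphatic genes 4.62 to 4.69 and 4.82 to 4.87, with 0 of either list past the test on the KO arrays. Their part in the Prox1 difference was not tested.

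Tnfrsf19 was 3.64, 3.86 and 3.87 in the KO tumor arrays and 4.11 and 4.50 in the KO adjacent arrays. The tumor arrays lay 0.05 to 0.27 under the background mark and the groups did not overlap, while −0.51 ± 0.16 did not pass (adjusted p = 0.198). Sp5, whose promoter held 2 TCF matches, was 4.85, 4.92 and 5.30 against 4.94 and 5.09. These arrays overlapped, and the 95% interval of the difference on the KO arrays ran from −0.38 to 0.40. Sp5 was the only measured member whose KO groups overlapped when the conflict arrays were left out.

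Of the positioning genes, the receptor gene Ephb3 was 4.36, 4.28 and 4.19 in the KO tumor arrays and 4.90 and 5.52 in the KO adjacent arrays. At −0.94 ± 0.19 it missed the threshold on the KO arrays (adjusted p = 0.0526). The ligand gene Efnb1 was 6.31, 6.50 and 6.68 against 6.23 and 6.25. Every tumor array was above both adjacent arrays, by a small margin, and 0.26 ± 0.15 did not pass (adjusted p = 0.503). The groups did not overlap in 8 of the 9 members, 7 lower in tumor, where 32.1% of all genes did not overlap and 14.1% were lower in tumor without overlap. These counts leave out the conflict arrays. With conflict array 2 read as KO, Ccnd1 (5.67), Sox9 (5.27), Ephb3 (4.34), Prox1 (3.01) and Cdca7 (5.15) would overlap as well. With conflict array 1 read as KO, Cdca7 (5.36) would.

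**Figure D2:**
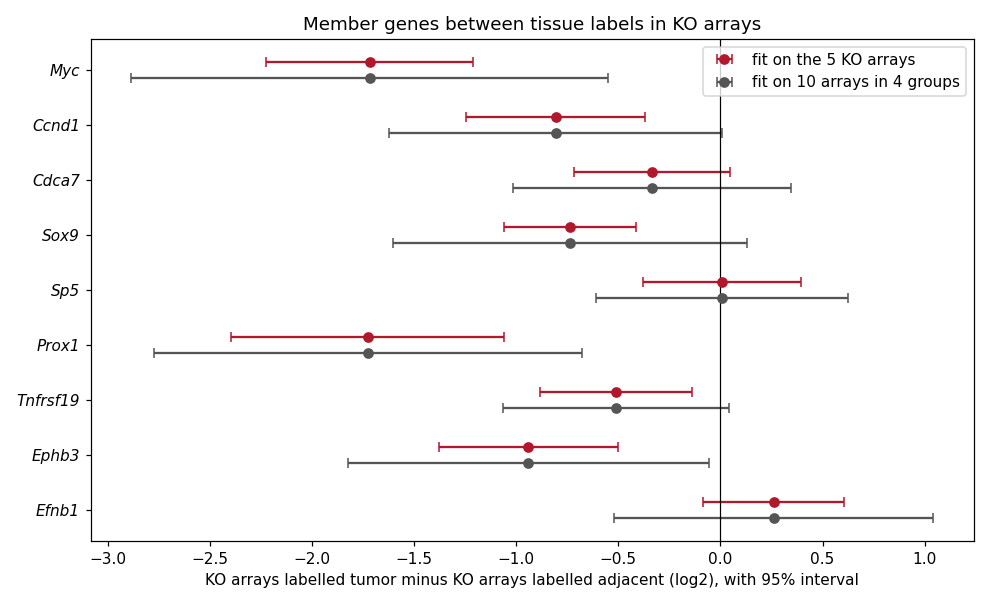
Difference between KO arrays labelled tumor and KO arrays labelled adjacent (log2, horizontal axis) for each of the 9 genes, with 95% intervals, from the fit on the 5 KO arrays (red) and from the fit on 10 arrays in 4 groups (grey). Points are the same in both fits; Myc at −1.72 and Prox1 at −1.73 lie farthest below 0 and Efnb1 at 0.26 lies above it.

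The 3 calls rested on few arrays. Without KO tumor array 2 or KO adjacent array 2, 0 of 9 members passed on the KO arrays (limma). Without KO tumor array 1, Myc was the member that passed (−1.91, adjusted p = 0.00911), without KO adjacent array 1 it was Prox1 (−2.31, adjusted p = 0.0108), and without KO tumor array 3 Myc, Prox1 and Sox9 all did. With conflict array 1 read by its title as KO, 0 of 9 passed on the KO arrays, against 0.0853% of all genes, and Myc stood at −2.12 (adjusted p = 0.0897). With conflict array 2 read as KO by its characteristic, 0 of 9 and 0 of all genes passed (5 members and 1899 genes at an unadjusted p under 0.05), and the members' median was −0.44. Array weights in the fit of 10 were set by each array's scatter about the fit, not by its signal strength. With them Ccnd1 (−0.75, limma adjusted p = 0.0137) and Ephb3 (−0.93, adjusted p = 0.0094) passed beside Myc, Prox1 and Sox9. That made 5 of 9 members, against 5.23% of all genes.

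Other genes of the pathway were taken from lists. Of 22 measured further Wnt targets and feedback genes, 19 lay below 0 in KO tumor against KO adjacent, with a median of −0.31. In the fit on the KO arrays 6 of the 22 were lower and 0 higher; the 3 with the largest differences were the adhesion receptor gene Cd44 at −1.79 (adjusted p = 0.00736), the secreted Wnt inhibitor gene Notum at −1.58 (adjusted p = 0.00314) and Nkd1, an inhibitor inside the cell, at −1.36 (adjusted p = 0.0079). In the fit of 10 arrays 0 of 22 passed, and Cd44 had an adjusted p of 0.156. Cell division genes lay below 0 in 14 of 14, with a median of −0.51, and the cyclin gene Ccna2 passed on the KO arrays (−1.05, adjusted p = 0.0461). Of 12 D cyclin, kinase and inhibitor genes 0 passed, with a median of −0.14 and Cdk4, the partner kinase of cyclin D1, at −0.83 (adjusted p = 0.0541 on the KO arrays) and the D cyclin gene Ccnd2 at −0.41 (adjusted p = 0.201). Of 11 genes of the MYC network, relatives and partners of MYC and MAX, 0 passed, with a median of 0.06, Mycl at −0.45 and Mga at −0.40.

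Of 19 other receptors and ephrins 0 passed, 10 lay above 0 and 9 below, and their median was 0.05. Epha7 at −0.44 and Epha1 at 0.55 had the smallest p, with adjusted p-values of 0.357 and 0.192 on the KO arrays. All 12 enterocyte genes lay above 0 with a median of 1.61. On the KO arrays 4 of them were higher in tumor, the largest being the sugar transporter genes Slc5a1 at 2.36 and Slc2a2 at 2.09 and the lipoprotein gene Apoa4 at 1.09, and 0 passed in the fit of 10 arrays. The 10 epithelial markers lay 5 above and 5 below 0, with a median of −0.03, and on the KO arrays Vil1 was higher, at 0.98, and Krt18 lower, at −1.74. The part of enterocyte content in the members' differences was not tested.

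**Figure D3:**
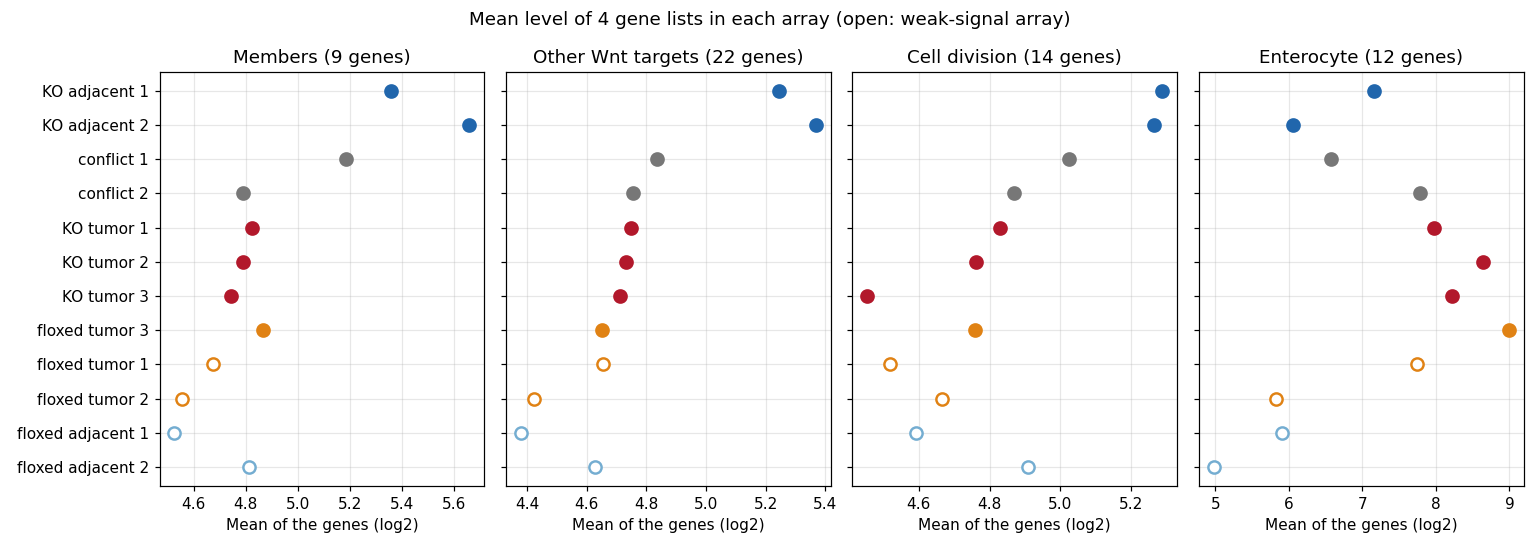
Mean log2 level (horizontal axes, each with its own range) of the 9 members, 22 other Wnt targets, 14 cell division genes and 12 enterocyte genes in each of 12 arrays; open points are weak-signal arrays. KO adjacent arrays 1 and 2 are highest for the members at 5.36 and 5.66, and the 3 KO tumor arrays lie at 4.74 to 4.82.

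Tissue was also compared over all 12 arrays, 6 labelled tumor and 6 adjacent, which needs no genotype. None of the 9 members passed (limma, 2 at an unadjusted p under 0.05), as 0 of all genes did, 513 of them at an unadjusted p under 0.05. Tnfrsf19 ranged from 3.64 to 3.92 in tumor with a median of 3.78, and from 3.99 to 4.58 in adjacent with a median of 4.23. All 6 tumor arrays lay below all 6 adjacent arrays, which held for 26 of 19938 genes, 0.13%. Its difference was −0.48 ± 0.16 (SE; adjusted p = 1.00). The values are near the background mark, and 9 of the 12 arrays lay within 0.3 of it. Measured from each array's own mark the tissues overlapped, with floxed tumor array 3 at 0.063 and floxed adjacent array 1 at 0.061.

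Myc ranged from 3.74 to 5.77 in the arrays labelled tumor, median 4.08, and from 4.71 to 7.08 in those labelled adjacent, median 5.69. The ranges overlapped through floxed tumor array 3 at 5.77, the only array labelled floxed in both fields that was not weak. The other 5 tumor arrays reached 4.54 at most, below every adjacent array. The difference was −1.34 ± 0.41 (adjusted p = 1.00), and it passed with array weights (−1.44, adjusted p = 0.0408), as 0.637% of all genes did. Sox9, Ephb3 and Ccnd1 differed by −0.34, −0.37 and −0.22. With the 8 arrays that were not weak, 4 of each tissue, the same 3 stood at −0.51, −0.69 and −0.53, and Myc at −1.33. None of the 9 members passed there (4 at an unadjusted p under 0.05). Over all 12 arrays the 12 enterocyte genes all lay above 0, with a median of 1.40, and 12 of 14 cell division genes below 0, with a median of −0.27; 0 of either passed, and their part in the members' values was not tested.

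The conflict arrays stood apart from each other. Myc was 7.08 in conflict array 1, the highest of the 12 arrays, and 4.71 in conflict array 2. Sox9 was 5.99 and 5.27, Ccnd1 5.91 and 5.67, and Ephb3 4.55 and 4.34 in the same order. Prox1 was 3.11 and 3.01, near the KO tumor arrays and below both KO adjacent arrays. Conflict array 1 thus had Myc above both KO adjacent arrays and Sox9 just under them, with Prox1 at the level of KO tumor, and in conflict array 2 Myc, Sox9 and Prox1 were all below the KO adjacent arrays.

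The genotypes were compared in adjacent epithelium on 2 KO and 2 floxed arrays, both floxed ones of weak signal. Ccnd1 was higher in KO by 2.05 ± 0.41 (log2, SE, 95% interval 1.15 to 2.94; limma adjusted p = 0.0256), the only call among the 9 members. Of all genes 6.06% were called, and 2.91% were called as higher in KO, so that 1 of 9 is not read as a result about the members together. Ccnd1 was 4.14 and 4.43 in the floxed arrays, 0.14 below and 0.09 above the background mark, against 6.29 and 6.38 in KO. Its call was kept with the replicate number as a block and lost when the arrays were quantile normalized again (adjusted p = 0.0716) or scaled to the same SD (adjusted p = 0.0699). It was also lost with the conflict arrays read by title (1.45, adjusted p = 0.340) or by characteristic (1.29, adjusted p = 0.162), and without any single one of the 4 arrays compared, or KO tumor array 1 or 2 (adjusted p = 0.0527 to 0.211).

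Further members had higher values in the KO adjacent arrays and did not pass in the fit of 10 arrays. Ephb3 was 4.10 and 3.60 in the floxed arrays, both under the background mark, by 0.18 and 0.73, so that the size of its difference of 1.36 ± 0.44 is uncertain (adjusted p = 0.0801). In the fit on these 4 arrays alone Ephb3 passed beside Ccnd1 (adjusted p = 0.0417), 2 of 9 against 17.2% of all genes. Efnb1 was 4.93 and 5.45 there, a difference of 1.05 ± 0.39 (adjusted p = 0.111). Receptor and ligand gene thus lay on the same side here. Cdca7 at 4.59 and 4.82, Sox9 at 4.33 and 5.95 and Myc at 5.60 and 4.89 differed by 0.92, 1.03 and 0.62. Sox9 and Prox1, the latter at 3.66 and 5.15, had the widest gaps within the floxed pair. Sp5 was 5.04 and 4.44, a difference of 0.28, and Tnfrsf19 4.35 and 4.58, a difference of −0.16. The median over the members was 0.92, against −0.04 over all genes, and the groups did not overlap in 6 members, against 67.1% of all genes.

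In the same comparison 10 of 10 epithelial markers lay above 0 with a median of 1.53, against 0.92 for the members, and 7 of the 10 passed on these 4 arrays alone. Above 0 lay also 11 of 12 enterocyte genes with a median of 0.88. Of the 22 other Wnt targets 3 were higher, Notum at 2.12, Cd44 at 1.82 and Nkd1 at 1.54, and 1 lower, the inhibitor gene Dkk2 at −1.24. Among the D cyclin, kinase and inhibitor genes, the kinase gene Cdk4 at 1.66 (adjusted p = 0.0315) and the inhibitor gene Cdkn1b at 1.29 (adjusted p = 0.047) were higher. Of the cell division genes Mcm7, a helicase subunit gene, was higher at 1.26 (limma adjusted p = 0.0454). Of the 19 other Eph genes (Efnb2 at 1.47, Epha6 at −0.98) 0 passed, as did 0 of the 11 MYC network genes (Zbtb17 at 0.93, Mga at 0.92). On the 4 arrays alone 2 Eph genes, Efnb2 and Epha1, and 3 MYC network genes, Mga, Mxd1 and Zbtb17, were higher. Signal strength and genotype cannot be told apart in these 4 arrays.

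**Figure D4:**
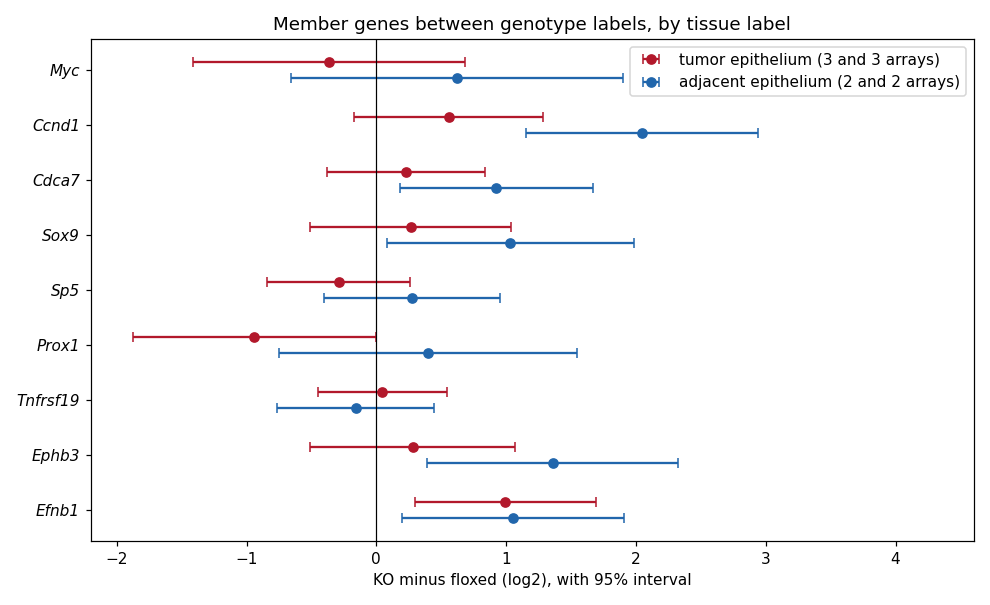
Difference between KO and floxed arrays (log2, horizontal axis) for each of the 9 genes, with 95% intervals from the fit on 10 arrays, in tumor epithelium (red, 3 and 3 arrays) and adjacent epithelium (blue, 2 and 2 arrays). Ccnd1 in adjacent epithelium at 2.05 is the member that passed.

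In tumor epithelium 0 of 9 members passed between the genotypes (limma, 2 at an unadjusted p under 0.05), against 1.08% of all genes called, 215 genes, or 3.92%, 782 genes, with the replicate number as a block. Efnb1 was 5.39, 4.94 and 6.18 in floxed tumor arrays 1 to 3, and every KO tumor array, at 6.31 to 6.68, lay above them. Its difference was 0.99 ± 0.32 (SE, limma adjusted p = 0.115). Efnb1 passed with array weights (1.08, adjusted p = 0.0266), where 14.6% of all genes did. It also passed without floxed tumor array 3 (1.33, adjusted p = 0.00419), where 29.1% did. Both floxed tumor arrays left in that fit are weak, so signal strength and genotype cannot be told apart there. Against floxed tumor array 3 alone, without the weak arrays, KO differed by 0.32 (adjusted p = 0.266), a fit in which the floxed side has 1 array and the spread comes from the other groups. Prox1 was 4.25, 4.36 and 3.45 in the floxed arrays, all above the 3.08 of KO, a difference of −0.94 ± 0.42 (adjusted p = 0.216). All 6 arrays were at or under the background mark, which is higher in the weak arrays, so this difference is between background levels.

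Myc was 4.01, 3.74 and 5.77 in floxed tumor arrays 1 to 3. The third was above every KO tumor array, the second just under the lowest, and the difference of −0.36 ± 0.47 did not pass (adjusted p = 0.673). Against floxed tumor array 3 alone, KO was lower by −1.63 (adjusted p = 0.0084), a value that rests on 1 floxed array, with the spread taken from the other groups, and 19.4% of all genes were called with it. In that fit 8 of 10 epithelial markers lay below 0 with a median of −1.13 and 5 were lower, 10 of 12 enterocyte genes lay below 0 with a median of −0.72, and Pcna, a cell division gene, was lower; their part in the Myc value was not tested. Ccnd1 was 5.11, 4.24 and 5.55 in the floxed arrays, a difference of 0.56, and Cdca7 5.62, 4.81 and 4.78, a difference of 0.23. Sox9 was 5.08, 5.19 and 5.24, below all KO tumor arrays by a small margin, a difference of 0.26. Ephb3 was 3.40, 4.83 and 3.75, on either side of the KO arrays, a difference of 0.28. Sp5 at 5.52, 5.25 and 5.17 and Tnfrsf19 at 3.69, 3.64 and 3.92 differed by −0.29 and 0.05. Groups did not overlap in Efnb1, Sox9 and Prox1, 3 of 9, near the 27% of all genes. The 22 other Wnt targets had a median of 0.02, with 0 called. With all 6 arrays 8 of 10 epithelial markers lay above 0, with a median of 0.52, the opposite of their direction against floxed tumor array 3 alone.

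Between tumor and adjacent epithelium in floxed arrays 0 of 9 passed (limma, 1 at an unadjusted p under 0.05, against 0.00502% of all genes called). Tnfrsf19 differed by −0.72 ± 0.25 (adjusted p = 0.312) and Myc by −0.73 ± 0.53 (adjusted p = 0.599), with the sign they had in KO, while Ccnd1 was at 0.68 and Sp5 at 0.58. Beside them the 12 enterocyte genes all lay above 0 (median 2.31), as did 9 of 10 epithelial markers (median 1.06). Of 14 cell division genes 10 lay below 0, with a median of −0.22. None of the genes in these lists passed, and their part in the members' differences was not tested. Groups did not overlap in Sp5 and Tnfrsf19, 2 of 9, near the 18.8% of all genes. Only floxed tumor array 3 was not weak in this comparison. The genotype difference itself was compared between the tissues, and 0 of 9 members passed, as 0 of all genes did (1 member and 1281 genes at an unadjusted p under 0.05). The largest was Ccnd1 at −1.49 ± 0.52 (adjusted p = 0.716). These comparisons share arrays with those above, so their values are not independent of them.

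By group mean over the 4 labelled groups, KO adjacent was highest for 6 of the 9 members: Myc, Ccnd1, Cdca7, Sox9, Prox1 and Ephb3. Efnb1 was highest in KO tumor at 6.50 ± 0.19 (SD, n = 3), Sp5 in floxed tumor at 5.31 ± 0.18 (SD, n = 3) and Tnfrsf19 in floxed adjacent at 4.46 ± 0.17 (SD, n = 2). For Tnfrsf19 this order is among values near background: above each array's own mark it stood at 0.06 and 0.25 in floxed adjacent and at 0.17 and 0.55 in KO adjacent. The genes whose values over the 12 arrays were most like the mean of the standardized members were Sypl (r = 0.94), D17H6S56E-5 (r = 0.92), Kcne3 (r = 0.91), Mpzl1 (r = 0.91) and Trim24 (r = 0.91). Over the 8 arrays that were not weak these values were 0.94, 0.90, 0.90, 0.93 and 0.89. The correlations over 12 arrays span a difference in signal strength, and both sets of arrays include the high KO adjacent pair.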

How the data were processed

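Per the submitters' processing notes, the authors made log2 expression values with Partek and RMA, robust multi-array averaging; versions and later steps are not given in the sources used here. A single deposited table held 1 log2 column for each of 12 arrays, 35556 probe sets, named from the platform's annotation: 21789 had 1 symbol, 1621 several and 12146 none here. The probe set with the highest mean stood for a gene.

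Tests used limma 3.58.1 in R 4.3.3 (lmFit, eBayes, two-sided, Benjamini-Hochberg over all genes, called at an adjusted p under 0.05) on 10 arrays in 4 groups, or on 12 for tissue. Lists are described by counts and medians. Weak-signal arrays had a median correlation with the others under 0.7. Members, lists and rules were chosen with earlier results of these data known. All members were named, and of a pathway list described gene by gene the 3 largest called differences or the 2 smallest p; other lists are given by counts. Ephb2 is not analysed here.

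Deviations from the group mean correlated between KO and floxed tumor arrays of the same number at r = 0.105, 0.121 and 0.347, each over 0.1, the threshold used for pairing. Tumor arrays of unlike number gave −0.291 to 0.246, so these values do not settle whether the number pairs arrays. It entered as a block only among the alternatives. No label says what it shares. Adjacent arrays of the same number gave 0.00986 in both pairs, under that threshold. Alternatives were other scaling, leaving out dim genes, the mean over all probe sets, variance options, array weights, fewer arrays and both readings of the conflicting labels. The steps were tested on simulated data. The number of arrays limits the precision.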

Additional observations from a re-analysis of the deposited data

How the results depend on the processing

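Counts of members that passed moved as follows (limma). In KO against floxed tumor the count of 0 became 1 with array weights and 1 without the weak-signal arrays, and was 0 to 1 with single arrays left out. In KO against floxed adjacent the count of 1 became 0 after quantile normalization, scaling, or either reading of the conflict arrays, 3 with array weights and 2 on the arrays compared, and was 0 to 4 with single arrays left out; 4 came without floxed tumor array 3, and without floxed adjacent array 2 the 1 member was Sox9. In KO tumor against adjacent, 0 became 5 with array weights and 3 without the weak-signal arrays or on the arrays compared, and stayed at 0 with single arrays left out of the 10; with single arrays left out of the 5 KO arrays, which changes both choices, it was 0 to 3. Over 12 arrays 0 became 1 with array weights. With replicate numbers as a block, counts for these 4 comparisons were 0, 1, 0 and 0, and the block changed no call of a member. The cause of these moves was not tested. Without the weak-signal arrays no floxed adjacent array is left, so the comparisons that need one could not be fitted.

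Differences that turned sign, none of them called, were these. KO against floxed tumor: Ccnd1 −0.0242 and Tnfrsf19 −0.12 without the weak-signal arrays, Cdca7 −0.0062 after quantile normalization. KO against floxed adjacent: Myc −0.38 by characteristic. KO tissue: Sp5 −0.0470 with array weights and −0.0270 with the block. Floxed tissue: Sox9 −0.0460 after quantile normalization, −0.0029 with weights, −0.0263 with the block, −0.0130 by title and −0.25 by characteristic, Ephb3 −0.0174 with weights, −0.0244 by title and −0.0936 by characteristic, Efnb1 −0.0308 by title, Prox1 0.0770 by title and 0.0463 by characteristic. Difference between tissues in the genotype difference: Myc 0.0113 by characteristic, Efnb1 0.11 after quantile normalization, 0.0087 after scaling, 0.03 with weights, 0.38 by title and 0.21 by characteristic. All 12 arrays: Cdca7 0.0730 after quantile normalization and 0.0724 after scaling.

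With single arrays left out, signs turned in these ranges. KO against floxed tumor: Myc −0.75 to 0.27, Ephb3 −0.0159 to 0.70, Tnfrsf19 −0.0109 to 0.13. KO against floxed adjacent: Sp5 −0.0253 to 0.58, Tnfrsf19 −0.35 to 0.0308, Prox1 −0.34 to 1.14. KO tissue: Sp5 −0.13 to 0.10. Floxed tissue: Sox9 −0.78 to 0.84, Ephb3 −0.28 to 0.44, Efnb1 −0.0202 to 0.60, Prox1 −1.13 to 0.36. Difference between tissues: Sox9 −1.58 to 0.0429, Efnb1 −0.34 to 0.28. All 12 arrays: Efnb1 −0.0254 to 0.37, Cdca7 −0.13 to 0.0873. Signal near the background mark limits Prox1 and Tnfrsf19 most.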

Other observations

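Among the 8 arrays that were not weak, the extremes of Efnb1 and Myc fell in the same arrays on opposite sides. Conflict array 1 had the highest Myc of the 8, at 7.08, and the lowest Efnb1, at 5.98. KO tumor array 3 had the lowest Myc, at 3.75, and the highest Efnb1, at 6.68. KO adjacent arrays 1 and 2 and floxed tumor array 3, between these, had the same order in both genes. The pattern was picked after the values were seen and carries no test. In the weak-signal arrays Efnb1 was 4.93 to 5.45, below all 8 others, with Myc from 3.74 to 5.60.

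Prox1 was the member with the widest gap inside the KO adjacent pair, 4.22 and 5.40, where Sox9 differed by only 0.03 (6.18 and 6.15) and Ccnd1 stood at 6.29 and 6.38. It was also the member with the closest values in KO tumor, 3.08 in each of 3 arrays, where it lay under the background mark by 0.83 to 0.85, so that this closeness is not read as a property of the gene. Sp5 and Tnfrsf19, which held TCF letters in their promoters, were not among the members that passed in any comparison of 10 or of 12 arrays or in the fit on the KO arrays. Cdca7, Efnb1 and Ephb3, without such letters, did not pass either in the unweighted fits of 10 or 12 arrays or on the KO arrays. Prox1, also without such letters at either start site, did pass on the KO arrays. Myc, Ccnd1 and Sox9 had no promoter sequence to search. Any link between promoter letters and calls was not tested.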
